A study of Rattus norvegicus with 24 samples.

Results

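The antioxidant and glutathione genes are 38 genes whose products remove superoxide, hydrogen peroxide and lipid peroxides, supply and use glutathione, or answer to the transcription factor Nrf2. They were found by gene symbol among the non-control probes of the array, and where a gene had several probes the one brightest on average was taken. All 38 were on the array, out of 36174 genes in all, and 37 of them were among the 20894 genes bright enough to be tested. Of those 20894, 15858 had a gene symbol and a RefSeq transcript. Shares given for all genes cover the rest too, such as transcripts without a symbol. The choice of probe used no measured difference between the groups, but the genes were listed with earlier results of these data known. Members had 45 probes in all, and 7 members had more than 1.

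RNA came from the left dorsal striatum of male Long Evans rats aged 80 to 90 days, measured on 24 Agilent one-colour arrays, 8 per group. All rats had 1 intraperitoneal injection a day for 5 days, and brains were taken 24 h after the last. Rats of the saline group received no drug, rats of the acute group received 1 mg/kg MDPV (methylenedioxypyrovalerone, a stimulant cathinone that inhibits the dopamine and noradrenaline transporters) at the last injection alone, and rats of the chronic group received it at all 5. The series design gives 6 per group, and 4 arrays of each group carry a title letter shared by pairs, so paired arrays were averaged, which left 18 units, 6 per group. No label says that a letter marks 1 animal, and arrays sharing a letter were less alike than other arrays of a group (consensus correlation of -0.37 over all genes), so the averaging behind the p-values and correlations over units rests on the design's 6 per group alone. With the 24 arrays as independent samples 0 members passed the adjusted threshold either. The arrays lay on 3 slides, each of which held all 3 groups. No label says that units came from separate animals, so p-values measure the spread between these samples.

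Superoxide dismutases turn superoxide into hydrogen peroxide, which catalase, the glutathione peroxidases and the peroxiredoxins reduce. Glutathione and thioredoxin provide the electrons and are themselves reduced by glutathione reductase and the thioredoxin reductases. Nrf2, held low by Keap1, drives many of these genes through the antioxidant response element. In the striatum dopamine is a source of oxidants, through its own oxidation and through its breakdown by monoamine oxidase.

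Between 50.7% and 71.3% of spots were well above background on an array, no spot was saturated, and the median spot was 6.31 to 10.4 times its local background. The number of arrays limits the precision. Markers of striatal projection neurons were measured for 16 of 16 listed genes, and 15 of them, Drd1, Drd2 and Ppp1r1b included, were well above background on all 24 arrays. Saline replicate 4 stood apart: its list level was the lowest for striatal projection neurons (0.96 on the log2 scale) and the highest for hypothalamus (-1.08). It was also the highest for a joint list of thalamus, septum and pallidum markers (-1.12), called the thalamus list below. Differences are given without this array too for many of the members named below, but it moved others as well. In bulk tissue, fewer cells of a type and less RNA per cell cannot be told apart. Another measure of each array also bears on the members. For each array, the log2 deviations of all other genes from their own means over the arrays were set against the share of G and C in their probes. The slope of this line (the probe GC slope, given per 10 percentage points) ran from -0.16 to 0.20 over the 24 arrays. It is relative to the other arrays and averages 0 over the 24 by construction. Over units it averaged 0.011 for saline, -0.011 for acute and 0.020 for chronic, with SDs of 0.067, 0.094 and 0.090.

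Probes of 5 members that the results turn on are shown here, 5′ to 3′, with G and C in capitals, because spread between groups (Cth), spread between arrays (Gpx3) and covariation that followed the probe GC slope (Txn2, Prdx5, Prdx1) are described by them. Positions are those of the files, in rat build rn4. The Cth probe lies at chr2:256069319-256069378 and has 30 G or C of 60 bases, as has that of Txn2. The Gpx3 probe (chr10:40316128-40317595), the Txn2 probe (chr7:115834342-115843687), the Prdx5 probe (chr1:209583751-209583924) and the Prdx1 probe (chr5:136983425-136984996) cover more genome than their 60 bases, so each is taken to cross an exon junction. The shares of G and C are 51.7% for Gpx3, 41.7% for Prdx5 and 36.7% for Prdx1.
Cth: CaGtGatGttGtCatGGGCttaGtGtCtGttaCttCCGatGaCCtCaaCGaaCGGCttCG
Gpx3: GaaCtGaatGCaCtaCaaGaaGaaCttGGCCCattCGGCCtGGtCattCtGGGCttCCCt
Txn2: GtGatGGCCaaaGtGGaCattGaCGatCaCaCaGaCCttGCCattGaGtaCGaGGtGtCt
Prdx5: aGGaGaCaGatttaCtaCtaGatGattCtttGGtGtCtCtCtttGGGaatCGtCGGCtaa
Prdx1: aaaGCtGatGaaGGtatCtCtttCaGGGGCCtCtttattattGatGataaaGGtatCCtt

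Most members were measured on every array. Of the 38, 32 were well above background on all 24 arrays. Cth was so on 16 arrays, Gpx3 on 17, Gsr on 22, and Hmox1 and Nqo1 on 23 each. Gclm, the modifier subunit of the enzyme that starts glutathione synthesis, was not well above background on any array and was not tested. Its only probe has 9 G or C of 60 bases, and the part of the probe in the weak signal was not tested. All values below are on the log2 scale relative to the 75th percentile of the array, and they do not rank one gene against another.

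No member changed between groups by the test used. With limma and Benjamini-Hochberg adjustment over all 20894 genes, 0 of 37 members had an adjusted p below 0.05 in any of the 3 comparisons or in the F test over the groups, and the background was also 0% of all genes in each. At an unadjusted p below 0.05, 0 of 37 members passed in acute against saline rats (background 1.59% of genes, 0.627% for higher and 0.967% for lower), 2 in chronic against saline (Cth and Txnrd1, both higher; background 2.87%, with 1.51% for higher and 1.35% for lower), 1 in chronic against acute (Cth, higher; background 2.48%, with 1.62% for higher and 0.866% for lower) and 1 in the F test (Cth; background 1.71%). No member's units were separate between 2 groups, against 0.0287%, 0.0479% and 0.182% of all genes in the 3 comparisons in that order. In each comparison the 95% intervals reached 0.141 to 0.775 to either side of the difference, with a median of 0.238.

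The median difference of the 37 members was -0.05 in acute against saline rats, where all genes tested had a median of -0.0023. It was 0.0011 in chronic against saline (all genes 0.020) and 0.068 in chronic against acute (all genes 0.024). The difference was above 0 for 9 of 37 members in acute against saline (49.1% of all genes), for 19 in chronic against saline (56.5%) and for 28 in chronic against acute (56.5%). Each group enters 2 of these comparisons, so their counts share samples. The acute median against saline was not stable over the slides: it was 0.079 on slide 1, -0.063 on slide 2 and -0.24 on slide 3.

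**Figure D1:**
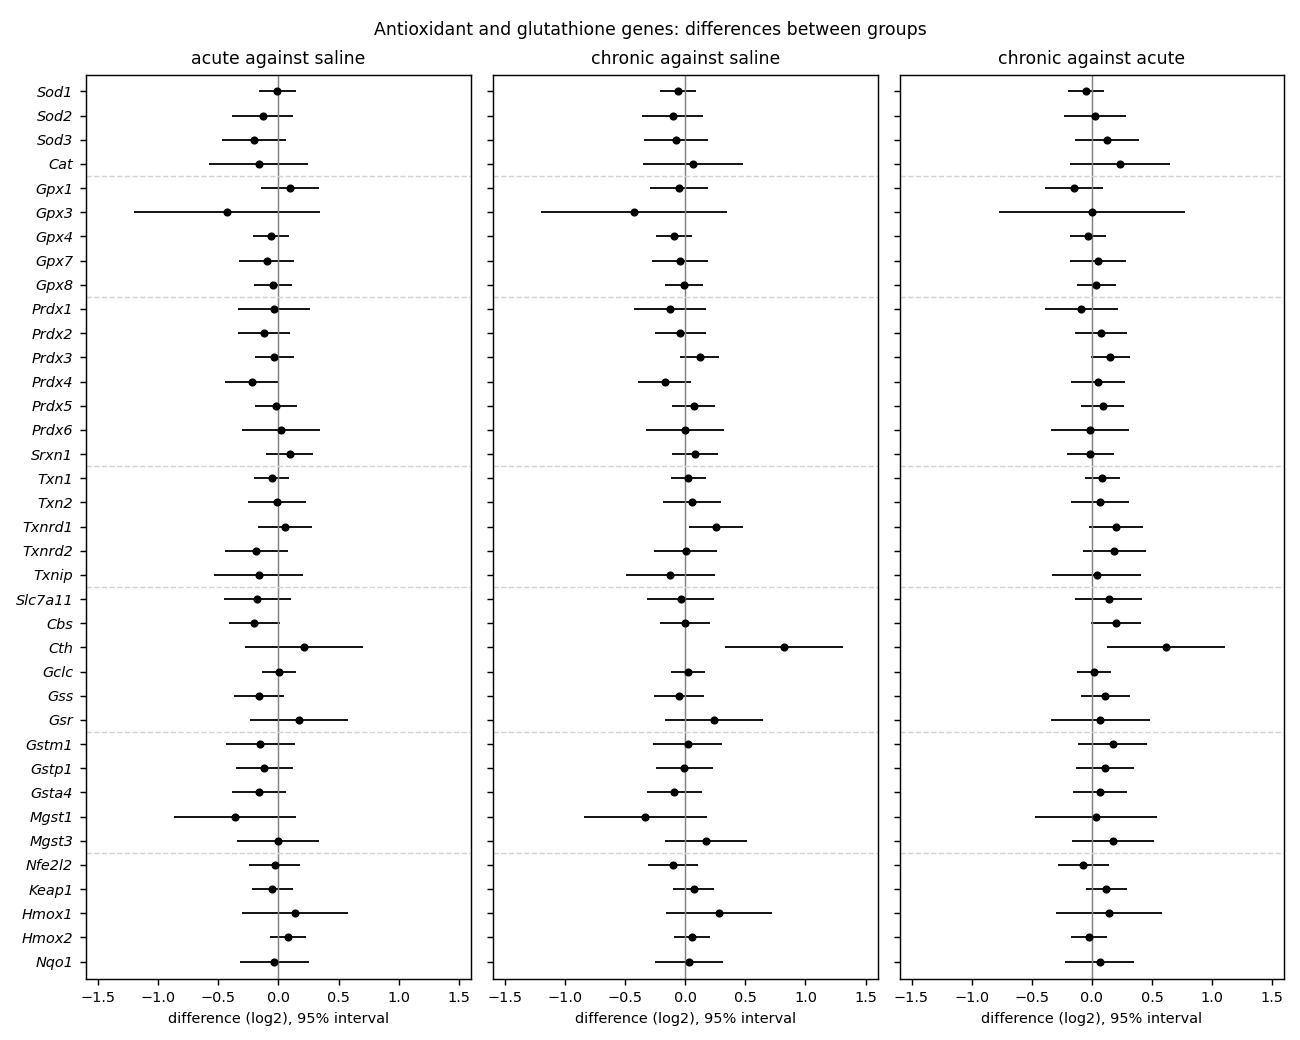
Differences between groups (log2, x axis) for the 37 tested members, in order of role, with dots for the limma estimate over 18 units and bars for the 95% interval. The bars of Cth lie above 0 in both comparisons with the chronic group and that of Txnrd1 in chronic against saline, before any adjustment.

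The superoxide dismutases and catalase all lay below saline in acute rats, with differences from -0.20 to -0.0091, though Sod1 was at 0.045 without saline replicate 4. Sod1, the cytosolic enzyme, ranged from 3.59 to 4.00 with a median of 3.66 in the saline units, from 3.67 to 3.78 (median 3.72) in acute and from 3.54 to 3.73 (median 3.69) in chronic units. The 3 groups overlapped, and the highest unit was saline replicate 4. Sod2, the mitochondrial enzyme, differed from saline by -0.13 in acute and -0.10 in chronic rats, and by -0.028 and -0.0021 without saline replicate 4. Sod3, the secreted enzyme, had the largest difference of the 4 in acute against saline rats (-0.20 ± 0.13 SE, limma adjusted p = 1.00, exact permutation p = 0.134, two-sided as in every such test here). Cat, which splits hydrogen peroxide, ran from -4.18 to -3.39 in saline (median -3.94), from -4.47 to -3.51 in acute (median -4.07) and from -4.30 to -3.21 in chronic units (median -3.86). Its spread within each group was larger than the differences of -0.16 (acute against saline), 0.068 (chronic against saline) and 0.23 (chronic against acute).

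Among the glutathione peroxidases, which use glutathione to reduce peroxides, the secreted enzyme Gpx3 varied most. Its saline units ran from -5.51 to -2.70 with a median of -4.78, its acute units from -5.57 to -4.41 (median -5.09) and its chronic units from -5.68 to -4.36 (median -5.12). The groups overlapped, and the top value was saline replicate 4. The difference was -0.42 ± 0.37 (SE) in acute and -0.43 ± 0.37 in chronic against saline rats, with an exact permutation p of 0.444 for both. Without saline replicate 4 these differences were -0.039 and -0.040. On the slides alone the chronic difference was 0.61, -1.15 and -0.62. Gpx4, which reduces lipid peroxides in membranes, had units that spanned 4.51 to 4.81 in saline, 4.48 to 4.68 in acute and 4.35 to 4.64 in chronic rats. Its chronic difference from saline was -0.089 ± 0.071 (exact permutation p = 0.216). Gpx1, the cytosolic enzyme, lay at 1.22 to 1.89 in saline (median 1.33), 1.21 to 1.76 in acute (median 1.49) and 1.097 to 1.54 in chronic units (median 1.36). Its difference of chronic from acute was -0.15 ± 0.11 (exact permutation p = 0.167), and it had the smallest limma p among members lower in that comparison. The gene's other probe gave -0.039. The chosen probe is placed on chr16_random in rn4, while the promoter matched for Gpx1 lies on chromosome 8 in GRCr8. The part of this mismatch in the Gpx1 values was not tested. Gpx7 and Gpx8, of the endoplasmic reticulum, differed from saline by -0.099 and -0.045 in acute and by -0.045 and -0.0083 in chronic rats. Without saline replicate 4 they differed by -0.15 and -0.077 in acute and by -0.098 and -0.040 in chronic rats.

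The peroxiredoxins reduce hydrogen peroxide through a reactive cysteine, and sulfiredoxin restores them after overoxidation. Prdx4, the peroxiredoxin of the endoplasmic reticulum, had the smallest p of all members in acute against saline rats. Its units ran from -1.90 to -1.45 in saline (median -1.67), from -2.06 to -1.62 in acute (median -1.98) and from -2.04 to -1.65 in chronic rats (median -1.86). The 3 ranges overlapped. The acute difference was -0.22 ± 0.11 (SE, limma adjusted p = 1.00, exact permutation p = 0.082) and the chronic one -0.17 ± 0.11 (exact permutation p = 0.104). Prdx3, the mitochondrial peroxiredoxin, ran from -0.22 to 0.19 in saline (median -0.01), -0.18 to 0.07 in acute (median -0.05) and -0.03 to 0.28 in chronic units (median 0.06). It was 0.15 ± 0.08 higher in chronic than in acute rats (limma adjusted p = 0.960, exact permutation p = 0.028) and 0.12 ± 0.08 higher than in saline rats (exact p = 0.117). Prdx1, Prdx2, Prdx5 and Prdx6 differed by no more than 0.13 in either direction between any 2 groups, and the -0.13 of Prdx1 in chronic against saline rats was 0.0015 without saline replicate 4. Srxn1, sulfiredoxin itself, was at -0.48 to 0.13 in saline, -0.16 to 0.10 in acute and -0.12 to 0.16 in chronic units. The lowest of these was saline replicate 4, and the acute difference was 0.093 ± 0.092, or 0.013 without it.

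In the thioredoxin system Txnrd1, the cytosolic thioredoxin reductase and a known Nrf2 target, was the second member with an unadjusted p below 0.05. Its saline units ran from -3.13 to -2.62 (median -2.93), its acute units from -3.10 to -2.57 (median -2.83) and its chronic units from -2.83 to -2.47 (median -2.65). The chronic units lay from within the saline range to above it. The difference of chronic from saline was 0.26 ± 0.11 (SE, 95% interval 0.032 to 0.48, limma p = 0.028, adjusted p = 1.00, exact two-sided permutation p = 0.056). From acute it was 0.20 (exact permutation p = 0.045), but 0.0090 or 0.39 with only the array of title digit 0 or only that of digit 1 for each letter. The gene's other, dimmer probe (mean -5.35 against -2.79) gave 0.20 against saline. On the slides alone the difference was 0.30, 0.43 and -0.042. Over units, Txnrd1 also followed the probe GC slope (r = 0.59), and with that slope as a covariate its difference was 0.24. Txn1, the cytosolic thioredoxin, had a second, much dimmer probe (mean -4.32 against 1.86). It gave 0.33 in chronic against acute rats where the chosen probe gave 0.084. Txn2 and Txnrd2, the mitochondrial pair, differed from saline in chronic rats by 0.054 and 0.0037 (-0.0034 and 0.0085 without saline replicate 4). In acute rats Txnrd2 differed by -0.18 (-0.087 without saline replicate 7). Txnip, which binds and inhibits thioredoxin, spanned -2.57 to -1.64 in saline (median -2.30), -2.76 to -1.95 in acute (median -2.40) and -2.67 to -1.99 in chronic units (median -2.37). Its groups overlapped over most of their range.

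Among the genes that supply glutathione, Cth stood out in the chronic group before adjustment. Cth makes cystathionine gamma-lyase, which releases the cysteine that limits glutathione synthesis. The saline units were at -6.73, -6.48, -6.06, -6.00, -5.75 and -5.58, the acute units at -6.62, -6.31, -5.82, -5.63, -5.51 and -5.47, and the chronic units at -5.73, -5.47, -5.46, -5.35, -4.96 and -4.71. All chronic units but the lowest lay above every saline unit, and the ranges met only at that unit. Single arrays overlapped more, from -6.88 to -5.12 in saline and from -6.11 to -4.71 in chronic rats. Saline replicate 8, at -5.12, lay above most chronic arrays and was averaged with saline replicate 1, at -6.88. The chronic difference was 0.82 ± 0.23 (SE, 95% interval 0.33 to 1.31) from saline, a fold of 1.77, with a limma p of 0.0024 and an adjusted p of 1.00. Its exact two-sided permutation p was 0.0043 before any adjustment over genes. From acute it was 0.61 ± 0.23 (limma adjusted p = 0.960, exact permutation p = 0.026), and acute rats differed from saline by 0.21 ± 0.23.

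The Cth signal was close to background, which limits these values. It was well above background on 4 of 8 saline, 5 of 8 acute and 7 of 8 chronic arrays, and over units its level was higher where more of an array's spots were well above background (r = 0.56 over 18 units, a description with no test). The part of that share in the result was not tested. With the 24 arrays as independent samples the chronic difference from saline was 0.69, and after normexp background correction it was 0.34. It was 1.28 on slide 1 and 0.63 on slide 2, and -0.11 on slide 3, where each group of 2 compared had 2 arrays. Groups held 44.4% of the variance of Cth over the 18 units, where the median gene had 7.85%.

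**Figure D2:**
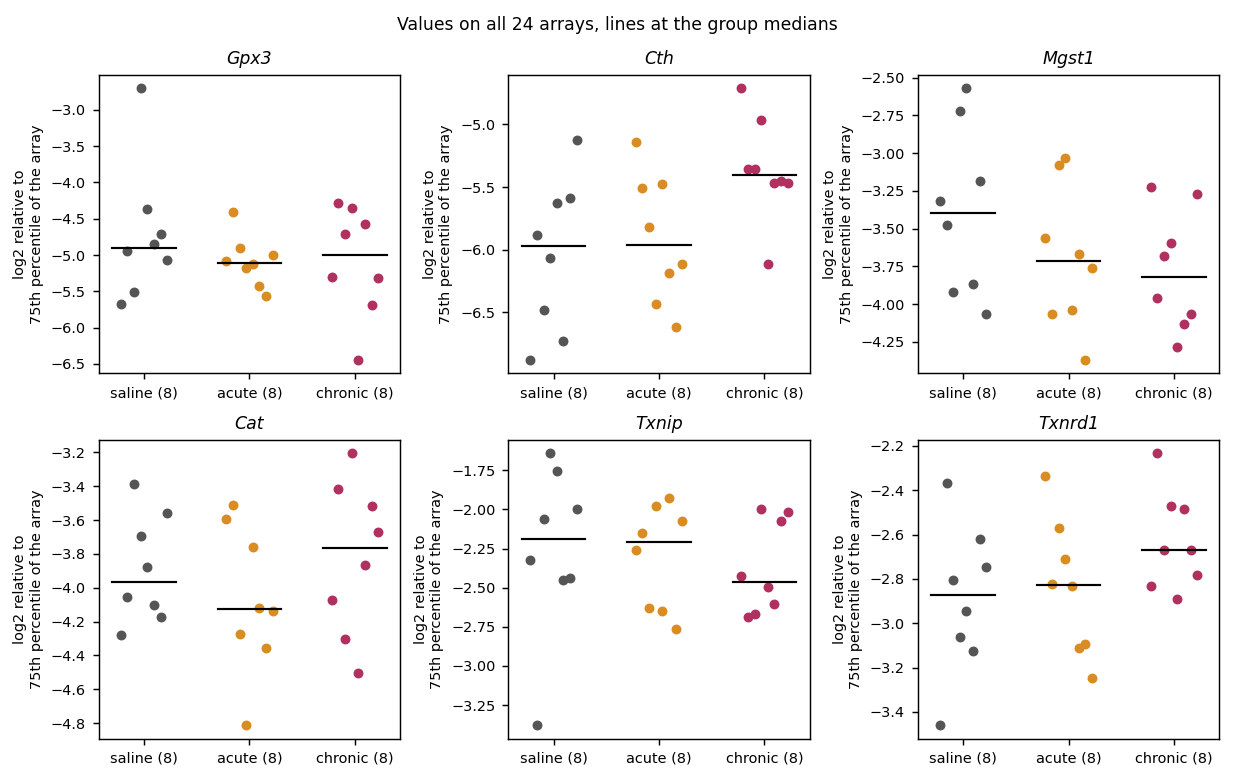
Values of the 5 most variable members and of Txnrd1 on each of the 24 arrays (y axis, log2 relative to the array's 75th percentile), by group, with lines at the group medians. For Cth 7 of 8 chronic arrays lie near or above -5.5, where some saline and acute arrays lie too. For Gpx3 a single saline array lies at -2.70.

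None of the other supply genes had an unadjusted limma p below 0.05. Cbs, which makes the cystathionine that Cth splits, lay at 0.27 to 0.70 in saline (median 0.39), -0.04 to 0.55 in acute (median 0.22) and 0.38 to 0.56 in chronic units (median 0.44). The acute difference from saline was -0.20 ± 0.10 (exact permutation p = 0.113), chronic lay 0.20 ± 0.10 above acute (exact permutation p = 0.063), and chronic and saline differed by 0.0011. Slc7a11, which imports cystine, differed from saline by -0.17 in acute and -0.036 in chronic rats. Its other probe, much dimmer (mean -6.23 against -0.88), differed by -0.57 and -0.46. Without saline replicate 4 the chosen probe gave -0.10 and 0.033. Gclc, the catalytic subunit of the enzyme that starts glutathione synthesis, had the smallest spread of all members, with 24 arrays between -0.27 and 0.05, and group differences between 0.0087 and 0.023. Gss, which completes the synthesis, was at -3.22 to -2.69 in saline (median -3.02), -3.33 to -2.92 in acute (median -3.22) and -3.18 to -2.87 in chronic units (median -3.07). Its acute difference was -0.16 ± 0.10 (exact permutation p = 0.156), or -0.098 without saline replicate 4. Gsr, which reduces oxidised glutathione, differed from saline by 0.17 in acute and 0.24 in chronic rats, each with an SE of 0.19. Without saline replicate 3, its lowest saline unit, these were 0.046 and 0.12.

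The glutathione transferases join glutathione to electrophiles. In acute rats all 5 lay below saline, with Mgst3 nearest at -0.0022. Mgst1, a transferase and peroxidase of membranes, differed most, with saline units from -3.92 to -2.72 (median -3.44), acute from -4.37 to -3.08 (median -3.85) and chronic from -4.12 to -3.23 (median -3.69). The differences from saline were -0.36 ± 0.24 (acute, exact permutation p = 0.227) and -0.33 ± 0.24 (chronic, exact p = 0.203), and -0.22 and -0.19 without saline replicate 4. In chronic rats Mgst3 and Gsta4 differed from saline by 0.17 and -0.090 (0.10 and 0.0033 without saline replicate 4). Gstm1 and Gstp1 differed by 0.022 and -0.0085 in chronic rats (0.017 and 0.049 without that array).

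Nfe2l2, the gene of Nrf2, and Keap1, its inhibitor, differed from saline by -0.10 and 0.071 in chronic rats and by -0.031 and -0.049 in acute rats. Without saline replicate 4 the differences of Nfe2l2 were -0.046 and 0.025. Hmox1, the inducible haem oxygenase, was 0.28 ± 0.21 above saline in chronic rats (exact permutation p = 0.342), and 0.081 without saline replicate 3. Its saline units ran from -5.25 to -3.54, wider than the acute (-4.30 to -3.94) or chronic ones (-4.20 to -3.57). Hmox2, the constitutive form, was 0.078 ± 0.071 above saline in acute rats, with the smallest limma p among members higher there (exact permutation p = 0.236). Nqo1, a quinone reductase, differed by -0.033 and 0.030.

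The 9 tested genes known as Nrf2 targets (Gclc, Gsr, Gstm1, Hmox1, Nqo1, Prdx1, Slc7a11, Srxn1 and Txnrd1) had a median difference of 0.030 in chronic and 0.0087 in acute against saline rats. Their 36 pairs had a median r of 0.13 over units, against 0.15 for all 666 pairs of members, and 0 of the 36 passed the threshold. Promoters are shown for Srxn1 and Prdx1, the only targets of this list in which a core of the antioxidant response element was found. The core was searched as TGACNNNGC and TGAGNNNGC on both strands, in 250 bases before to 50 after the RefSeq gene start (GRCr8). RefSeq promoters were matched for 32 members, of which 13 (40.6%) held a core, as did 9063 of all 33469 promoters (27.1%). Srxn1 held 3 and Prdx1 held 1 in the stretch printed. Gclc, Gstm1, Nqo1, Slc7a11 and Txnrd1 held 0 in the bases searched, and Gsr and Hmox1 had no matched promoter. The stretches run from 150 bases before to 9 after the start, counted with the first transcribed base as 0, on the plus strand at chr3:161064662-161064821 for Srxn1 and chr5:135383756-135383915 for Prdx1, with cores in capitals. A match describes the letters and is not a measured binding site.
Srxn1: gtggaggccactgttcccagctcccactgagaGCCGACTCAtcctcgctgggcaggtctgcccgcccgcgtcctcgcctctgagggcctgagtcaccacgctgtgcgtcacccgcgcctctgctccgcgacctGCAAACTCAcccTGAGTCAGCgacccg
Prdx1: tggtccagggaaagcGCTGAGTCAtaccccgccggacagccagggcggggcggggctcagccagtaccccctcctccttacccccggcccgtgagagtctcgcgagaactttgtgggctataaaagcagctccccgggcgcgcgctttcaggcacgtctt

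The median SD over the 24 arrays was 0.222 for members and 0.278 for all genes tested. The 5 largest were Gpx3 (0.702, a 13.4-fold range), Cth (0.581, 4.50-fold), Mgst1 (0.488, 3.48-fold), Cat (0.402, 3.05-fold) and Txnip (0.390, 3.33-fold). The 3 smallest were Gclc (0.0933), Hmox2 (0.112) and Txn1 (0.114). As a description over 24 arrays that share slides, the genes most like Gpx3 were Pcbd1 (r = 0.89), Wdr6 (0.86) and Hpcal1 (0.84). For Cth they were Adhfe1 (0.77), Maoa (0.75) and Tifa (0.75), and for Mgst1 Epb41l4a (0.86), Lrrc23 (0.86) and Inadl (0.82). For Cat they were Commd9, Syngr2 and Plcd3 (0.77, 0.77 and 0.75), and for Txnip Mrc2, Gbp2 and Adamts9 (0.84, 0.84 and 0.83).

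Of 666 pairs, 19 passed an adjusted p of 0.05 by Pearson's r with a permutation test, 18 of them positive, and 15 by Spearman's rho, of which 9 passed by both. The closest were Prdx5, a peroxiredoxin of mitochondria, peroxisomes and cytosol, with Txn2, the mitochondrial thioredoxin (r = 0.87, rho = 0.86, permutation adjusted p = 0.0033 and 0.0067), and Txn2 with Keap1 (r = 0.86, rho = 0.85, adjusted p = 0.0033 and 0.0067). Then came Txn2 with Mgst3 (r = 0.81, rho = 0.85), Prdx5 with Keap1 (0.80 and 0.77), Prdx5 with Mgst3 (0.77 and 0.79), Prdx2 with Txn2 (0.76 and 0.81) and Prdx5 with Txnrd2 (0.74 and 0.74), each with permutation adjusted p of 0.042 or below for both measures. Without the 2 units farthest from the median of the first gene, these 7 pairs had r from 0.61 to 0.81. Prdx5 with Txn2 had r = 0.95, 0.82 and 0.88 on the 3 slides. No such count for pairs of all genes is given here, so the 19 pairs do not set the members apart from other genes.

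Of 37 members, 14 correlated with the probe GC slope over the 18 units past an adjusted permutation p of 0.05, 13 of them positively, led by Txn2 (r = 0.92, rho = 0.94, permutation adjusted p = 0.00037 for both). Then came Prdx2 (r = 0.84), Prdx5 (0.78), Keap1 (0.78), Gpx7 (0.77) and Mgst3 (0.73), and the negative one was Prdx1 (-0.61, rho = -0.72). Cbs, whose probe has 36.7% G and C as has that of Prdx1, had r = 0.68. Cth and Gpx3, at 50% and 51.7%, had r = 0.22 and 0.091. The part of a member's own probe in these relations was not tested. For Txn2 r was 0.91 without the 2 farthest units, and 0.91, 0.89 and 0.92 on the 3 slides. By comparison, 16.2% of members and 17.4% of all genes had r beyond 0.7 in either direction. In 13 of the 18 positive pairs both genes followed the slope past the threshold. With the slope regressed out of every member, an alternative chosen after seeing the data, 0 of 666 pairs passed by r (smallest permutation adjusted p = 0.073, and 110 at an unadjusted p below 0.05 against 150 before). Prdx5 with Txn2 then had r = 0.62, Txn2 with Keap1 0.57 and Prdx2 with Txn2 -0.046.

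**Figure D3:**
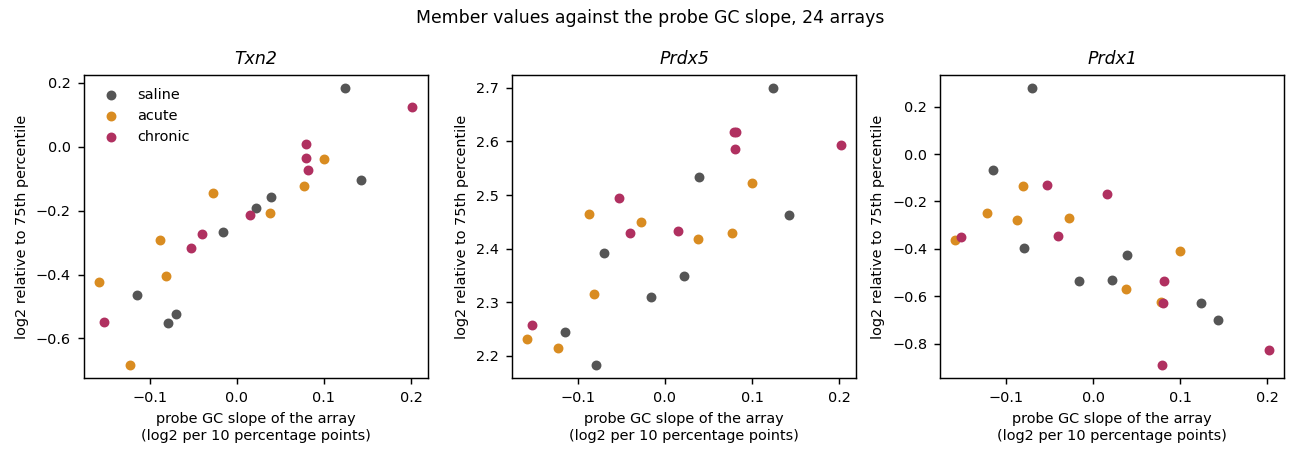
Values of Txn2, Prdx5 and Prdx1 (y axis, log2 relative to the 75th percentile) against the probe GC slope (x axis, log2 per 10 percentage points of probe G and C) on 24 arrays, coloured by group. Txn2 and Prdx5 climb with the slope (r = 0.92 and 0.78 over units) and Prdx1 declines (-0.61).

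Of the remaining pairs, 3 depended on saline replicate 4. Gpx3 with Gsta4 (r = 0.78, permutation adjusted p = 0.051) had 0.45 without it, and Gpx3 with Srxn1 (r = -0.77, adjusted p = 0.064) came to -0.36. Gpx4 with Srxn1 (r = -0.72, rho = -0.57, permutation adjusted p = 0.049 and 0.146) came to -0.57. Gpx1 with Txn1 (r = -0.70, rho = -0.70, permutation adjusted p = 0.051) was -0.69 both without that array and with the slope removed, and was -0.65, -0.83 and -0.84 on the 3 slides. Prdx1 with Txn2 (r = -0.68, adjusted p = 0.051) was -0.38 with the slope removed.

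**Figure D4:**
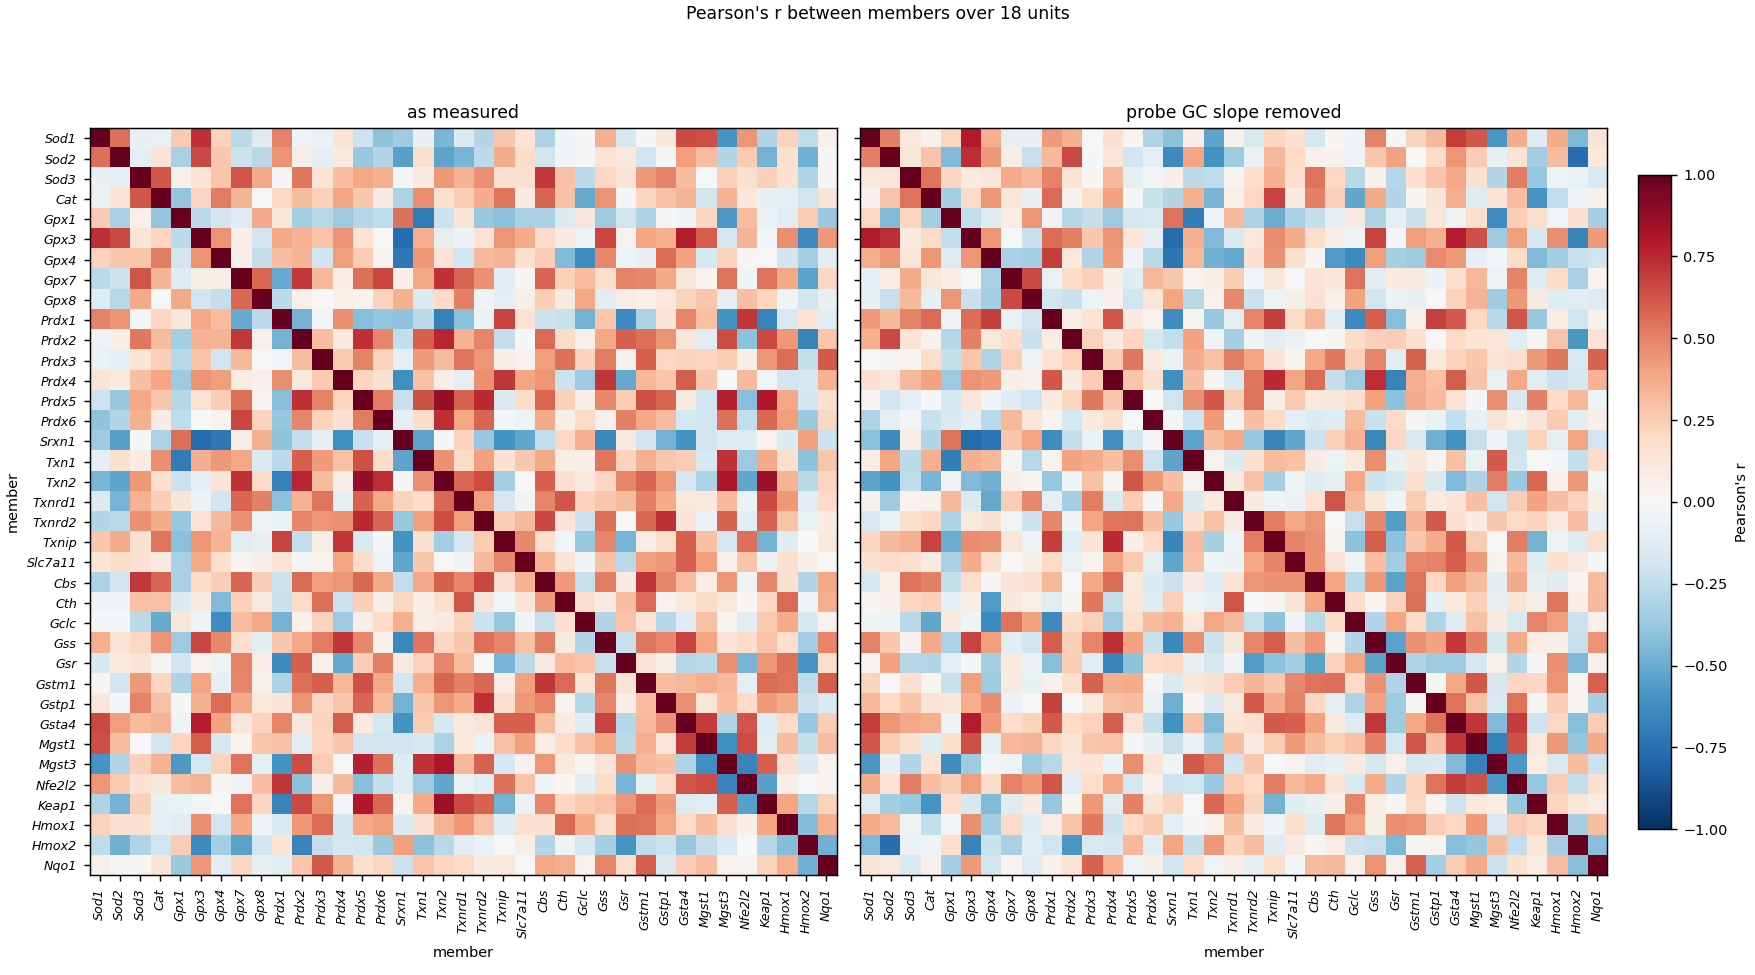
Pearson's r between the 37 tested members over 18 units (colour, -1 to 1; both axes list the members by role), as measured and with the probe GC slope of the units removed. The red block of Prdx5, Txn2, Mgst3 and Keap1 on the left is paler on the right, where Prdx5 with Txn2 has r = 0.62.

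Each member was set beside the mean level of 11 lists of cell type and region markers, which made 407 relations over the 18 units, and 10 passed an adjusted permutation p of 0.05 by r. By rho 2 passed, both of them also by r. The share of all genes that relate to these lists is not given here, so the counts do not set the members apart. Mgst3 rose with cortical markers (r = 0.83, rho = 0.89, permutation adjusted p = 0.0020 and 0.0041), with r = 0.78 without the 2 farthest units, 0.82 without saline replicate 4, and 0.73, 0.89 and 0.85 on the 3 slides. The cortical list had 10 of 11 genes measured, 7 of them well above background on all 24 arrays, and ranged over -3.53 to -1.04 in saline, -2.39 to -1.50 in acute and -2.48 to -1.14 in chronic units. Its mean was 0.22 higher in acute and 0.45 higher in chronic than in saline rats, and with the levels of choroid plexus and cortex in the fit the chronic difference of Mgst3 was 0.087 in place of 0.17. Txnip declined with striatal projection neuron markers (r = -0.80, rho = -0.84, permutation adjusted p = 0.0020 and 0.010), with r = -0.68 without the 2 farthest units, -0.71 without saline replicate 4, and -0.73, -0.57 and -0.50 on the slides. That list ranged over 0.96 to 2.52 in saline, 1.95 to 2.41 in acute and 1.61 to 2.34 in chronic units.

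Gpx3 had r = 0.89 with the hypothalamus list and 0.87 with the thalamus list (permutation adjusted p = 0.016 and 0.017), and 0.65 and 0.61 without saline replicate 4 (permutation adjusted p = 0.143 and 0.180). On the slides it had r = 0.31, 0.87 and 0.28 with the hypothalamus list. That list had 8 of 8 genes measured, 3 of them well above background on all arrays, and ranged over -4.35 to -1.08 in saline, -4.26 to -3.87 in acute and -4.50 to -3.89 in chronic units. Sod1 followed it too (r = 0.84, adjusted p = 0.0027, and 0.78 with adjusted p = 0.027 without the array, permutation test), and so did Gsta4 (r = 0.81 and 0.50). Sod1 declined with cortical markers (r = -0.81, and -0.68 without the array). Srxn1 followed striatal markers (r = 0.82 and 0.53), while Gss (-0.74 and -0.57) and Prdx4 (-0.67 and -0.56) ran against them. Without saline replicate 4, 4 of 407 relations passed: Mgst3 with cortex, Txnip with striatal neurons and Sod1 with hypothalamus, which were among the 10, and Gpx1 with cortex (r = -0.84, and -0.57 with that array).

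**Figure D5:**
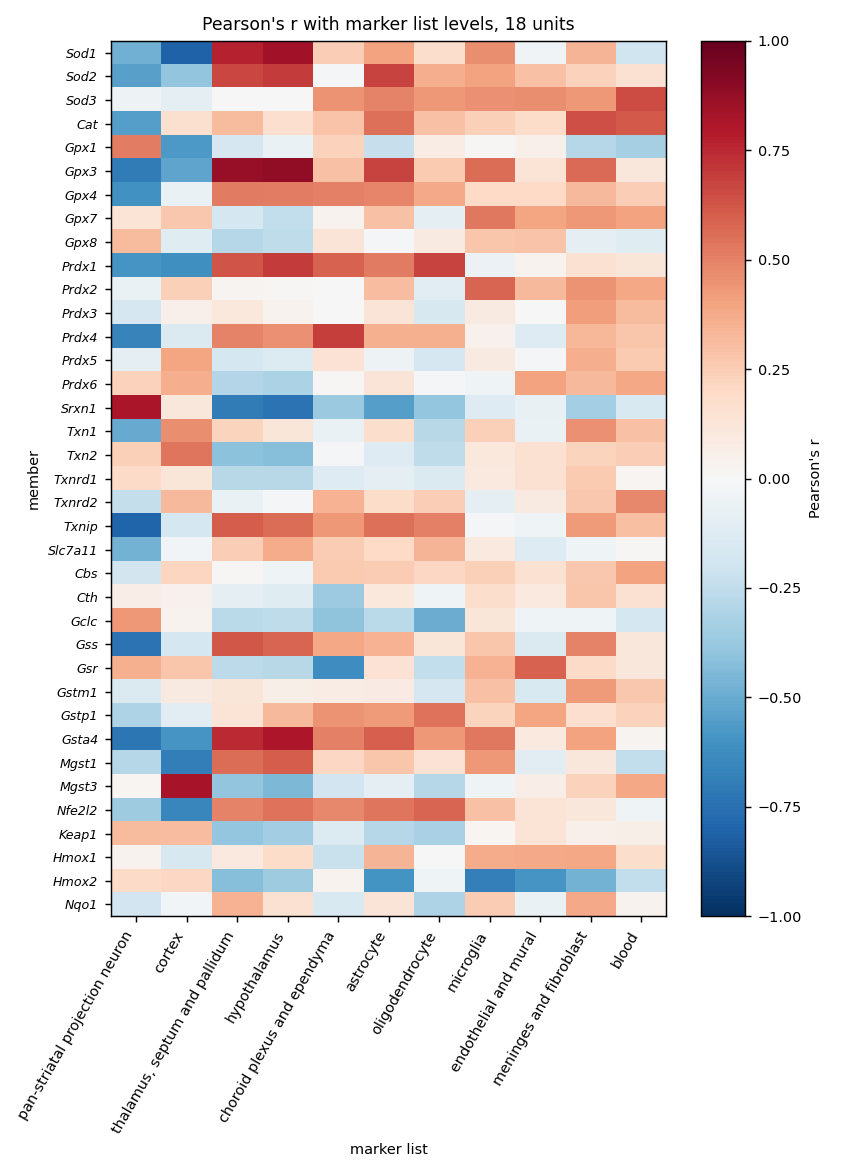
Pearson's r over 18 units (colour, -1 to 1) of each tested member (rows, by role) with the level of 11 marker lists (columns). Mgst3 with cortex (0.83) and Gpx3 with hypothalamus (0.89) are the deepest red cells of their columns, and Txnip with striatal neurons (-0.80) the deepest blue of its column.

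The second members by r were Txn2 with cortex (0.53), Gpx1 with striatal neurons (0.51) and Sod1 with thalamus (0.77). In the other 7 lists no relation passed, and the 2 highest members of each follow. With the choroid plexus list these were Prdx4 (r = 0.69) and Prdx1 (0.59), with astrocytes Gpx3 (0.68) and Sod2 (0.67), with oligodendrocytes Prdx1 (0.67) and Nfe2l2 (0.58), and with microglia Prdx2 (0.58) and Gpx3 (0.56). With endothelial and mural markers they were Gsr (0.59) and Sod3 (0.47), with meningeal markers Cat (0.65) and Gpx3 (0.57), and with blood Sod3 (0.65) and Cat (0.62). The choroid plexus list, with 10 of 14 genes measured, averaged -2.71 in saline, -3.62 in acute and -4.23 in chronic units. In the fit with choroid plexus and cortex levels, Cth differed by 0.81 and Txnrd1 by 0.30 in chronic against saline rats, and Gpx3 by -0.19. In that fit Prdx4 differed from saline by -0.020 in chronic rats in place of -0.17, and by -0.13 in acute rats in place of -0.22.

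Of 108 listed genes outside the 38, 87 were tested, and 0 passed the adjusted threshold by limma in any comparison. At an unadjusted p below 0.05, 1 was lower in acute than in saline rats, Gstt3 (-0.38 ± 0.18), a transferase. None passed in chronic against saline, where Gsto1 and Gsto2 (0.21 and 0.27) came first among other glutathione enzymes, Sesn2 and Txnrd3 (0.78 and 0.30) among repair and reductant genes, and Maoa and Nos3 (0.20 and 0.27) among oxidant producers. In chronic against acute rats 2 were higher, Txnrd3 (0.40 ± 0.19) and Maoa (0.24 ± 0.11), the monoamine oxidase that yields hydrogen peroxide, and 1 was lower, Gpx2 (-1.22 ± 0.53). Against the background of 1.59%, 2.87% and 2.48% of genes, these are 1, 0 and 3 of 87. Regulators of Nrf2 and metallothioneins or selenoproteins gave no such gene: Maff (-0.44) and Mafk (0.49) led the first in acute and Cul3 and Nfe2l1 (0.068 and 0.098) in chronic against saline rats, and Mt1a (0.12) and Selk (-0.066) the second.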

How the data were processed

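RNA of 24 one-colour Agilent arrays was analysed, 8 per group on 3 slides. Each spot's processed signal is, per the file headers, an intensity with background subtracted from Feature Extraction (10.1.1.1 in the headers, 10.7 in the submitters' processing notes), and flags of 0 or 1 (other) mark spots that are saturated, uneven or well above background. The deposited value table of the authors holds log2 values whose ranks are those of the processed signals, and its normalization is not given in the sources used here. Values were put on the log2 scale and the 75th percentile of their array subtracted. Control and outlier spots were left out. Probes entered if a 0.5 share or more of some group's arrays was well above background, which gave 26251 of 45598. A gene was its kept probe with the highest mean. Groups were compared with limma 3.58.1 (lmFit, eBayes) over 18 units and 20894 genes, Benjamini-Hochberg adjusted, threshold 0.05. A difference has the group named first as minuend. Correlations used 100000 permutations, two-sided, adjusted over their family. In simulated data for chronic against saline (20829 genes), 200 genes were changed at once, with independent noise. There 52.5% of 1.5-fold and 82.0% of 2-fold changes were recovered, with 7 and 11 false calls. With fewer changed genes the adjustment is stricter, so these shares are not the chance of finding a changed member. The members and lists were chosen with earlier results of these data known. Genes given in full were, per comparison, the 3 members with the smallest p in each direction, the 5 with the largest and 3 with the smallest SD, and the strongest pairs and marker relations. Alternatives covered normalization, background correction, filters, probes, replication, slide, moderation, weights, tissue makeup and each unit left out. The probe GC slope was added after seeing the data. Protein sequences were not used here. Fits ran in R 4.3.3 (statmod 1.5.0), correlations in Python 3.11.15 with scipy 1.17.1, tables in pandas 2.3.3 and numpy 2.4.6, and plots in matplotlib 3.10.9.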

Additional observations from a re-analysis of the deposited data

Results flagged for a closer look

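In 9 of 111 groups of 6 units, the highest or lowest unit stood further from the rest than Dixon's 95% value (0.625 of the group's range) allows, where chance flags about 1 in 20. In saline rats these were replicates 2 and 5, averaged, for Gpx1 (1.89, next unit 1.37), and replicate 4 for Gpx3 (-2.70, next -4.66), Prdx1 (0.28, next -0.38) and Gsta4 (-0.095, next -0.53). Saline replicate 7 was high for Prdx2 (3.54, next 3.29). Chronic replicate 1 was low for Gpx4 (4.35, next 4.55), Prdx6 (0.056, next 0.70) and Txn2 (-0.55, next -0.21). Acute replicate 2 was high for Txnrd2 (-3.03, next -3.26). Saline replicate 4 and chronic replicate 1 gave 3 of these each. Saline replicate 4 had the highest hypothalamus and thalamus list levels, and chronic replicate 1 had a probe GC slope of -0.15, near the lowest of the 24 arrays. The part of either in these values was not tested.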

How the results depend on the processing

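Under the alternatives run, 0 members passed the adjusted threshold in any comparison. The smallest adjusted p of a member by limma was 0.911 in acute against saline, 0.372 in chronic against saline, 0.190 in chronic against acute and 0.364 in the F test, and 0 to 3, 1 to 6, 0 to 12 and 0 to 6 members had an unadjusted p below 0.05. The top counts came with background: array weights gave 12 of 37 in chronic against acute, where 21.1% of all genes passed, and 6 of 37 in chronic against saline (11.9%) and in the F test (13.6%), and leaving out acute replicate 2 gave 3 of 37 in acute against saline (2.89%). Of 37 members, 5, 2 and 11 kept the sign of their difference in all settings run (38, or 37 for 5 dim members, Cth and Hmox1 included), in acute against saline, chronic against saline and chronic against acute. The median difference of members in acute against saline was 0.079 on slide 1 and -0.24 on slide 3, and the cause was not tested. Over all settings it ran from -0.060 to 0.078 in chronic against saline and from 0.016 to 0.13 in chronic against acute. The 10 relations with marker lists became 42 over 24 arrays, 16 with quantile normalization, 16 with the authors' table, 4 without saline replicate 4 and 21 with the probe GC slope removed. The 19 relations between members became 115 over 24 arrays, 33 with the authors' table, 38 with group means removed and 0 with the slope removed, where 110 of 666 had an unadjusted permutation p below 0.05. With 24 arrays more points enter each test. Relations that changed sign were Prdx2 with Txn2 (-0.046 with the slope removed), Gpx3 with thalamus (-0.14) and Sod1 with hypothalamus (-0.0048) on slide 1, and Prdx4 (0.034) and Gss (0.24) with striatal markers on slide 3. No paired analysis was possible because no label links samples of different groups, and the replicate numbers used here count within each group. Signals of Cth and Gpx3, near background on 8 and 7 arrays, limit their values.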
